A study of Mus musculus with 2 samples.

Results

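The cells described here are macrophages scraped off the inner aortic wall of an old mouse. They are the barcodes of the old library in which at least 5 of 10 myeloid genes (C1qa, C1qb, C1qc, Lyz2, Csf1r, Cd68, Mrc1, Tyrobp, Fcer1g and Cd14) and fewer than 3 of 5 endothelial genes (Cdh5, Tie1, Cldn5, Sox17 and Esam) were detected. This rule took 130 of the 3408 barcodes of the old library, and 4774 barcodes were deposited in all. The old library came from 1 C57BL6/J mouse aged 18 months, and a library of 1 C57BL6/J mouse aged 8 weeks served only as a point of reference. In both mice the aorta was cleared of adventitia, and endothelium was loosened with trypsin for 10 minutes and scraped off with a small blade. From each, 8700 cells were loaded for droplet capture with a target of 5000, and RNA was counted at its 3′ end by unique molecular identifiers (UMIs). Neither mouse carried an allele or treatment that the labels name.

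Macrophages are phagocytes that clear dying cells, debris and haemoglobin, sample antigen and release chemokines. In mouse arteries, long-lived resident macrophages are known for the hyaluronan receptor Lyve1 and for scavenger receptors and lectins, while macrophages that present antigen carry MHC class II molecules, and Ccr2 is the receptor by which monocytes leave the blood. The C1q chains, which start the classical complement cascade, are made mainly by tissue macrophages.

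The old library held 19171045 UMIs with a median of 4737 UMIs per barcode, and the young library 12576023 UMIs with a median of 7558.5. The 130 macrophages held 608431 UMIs. Their depth ran from 1553 UMIs over a median of 4045.5 to 11526 UMIs, with a median of 1537.5 genes and of 3.27% mitochondrial UMIs. Against them stood 3278 other old barcodes, of which 2217 carried at least 3 of the 5 endothelial genes, 527 carried at least 3 of 6 fibroblast genes and 86 at least 3 of 10 lymphocyte genes, so the scraped surface did not yield endothelium alone. The depth in the wall from which the macrophages came is not recorded. The libraries shared 11 barcode sequences, and 0 of these were old macrophages. With 1 library per age and members picked by their own expression, every value below is a description without a test, and all 95% intervals cover counting error only.

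Macrophages made up 3.81% of old barcodes (exact Clopper-Pearson 95% interval 3.20 to 4.51%). By the same rule the young library held 6 macrophages among 1366 barcodes, 0.439% (0.161 to 0.954%). The median macrophage showed 9 of the 10 myeloid genes, and 99 of 130 showed at least 8. Just inside the threshold, 8 barcodes with exactly 5 of the genes held 16 to 134 UMIs of the 10 genes together (median 45), and just outside it, 4 barcodes with 4 of the genes held 9 to 28 (median 11). The endothelial clause left out 20 further barcodes, which had a median of 8600.5 UMIs and up to 17759. No doublet caller was run, and their makeup was not tested. Of the 130 macrophages 41 showed none of the 5 endothelial genes, 48 showed 1 and 41 showed 2. When any endothelial gene disqualified a barcode, the share became 1.20%.

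Macrophage RNA was also present at a low level outside the macrophages. Of the other old barcodes 50.8% held a UMI of at least 1 of the 10 myeloid genes. The 25 genes with the highest lower bound of the ratio of macrophages over all other barcodes, among those with at least 100 UMIs in macrophages, stood in endothelial barcodes with fewer than 3 myeloid genes at 0.232 to 0.625% of their macrophage level (median 0.440%), and in fibroblast barcodes at 0.219 to 1.26% (median 0.468%). The 25 genes were ranked by that ratio, and the barcodes picked for few myeloid genes, so these low levels follow in part from the choice. In the other direction, the 12 endothelial markers stood in macrophages at 0 to 27.7% of their level in endothelial barcodes (median 10.8%), and the 10 fibroblast markers at 1.41 to 9.38% of their level in fibroblast barcodes (median 5.14%). Those markers were not ranked by a ratio, so the values of each direction cannot be set against each other. Haemoglobin RNA summed to 1734 CPM, a class's UMIs of a gene scaled to 1000000 UMIs in all, in macrophages, against 1541 in endothelial, 1440.3 in fibroblast and 611 in lymphocyte barcodes. The part of such RNA in the values below was not tested. Of the 1057 UMIs of red cell genes in macrophages, a single macrophage held 635.

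**Figure D1:**
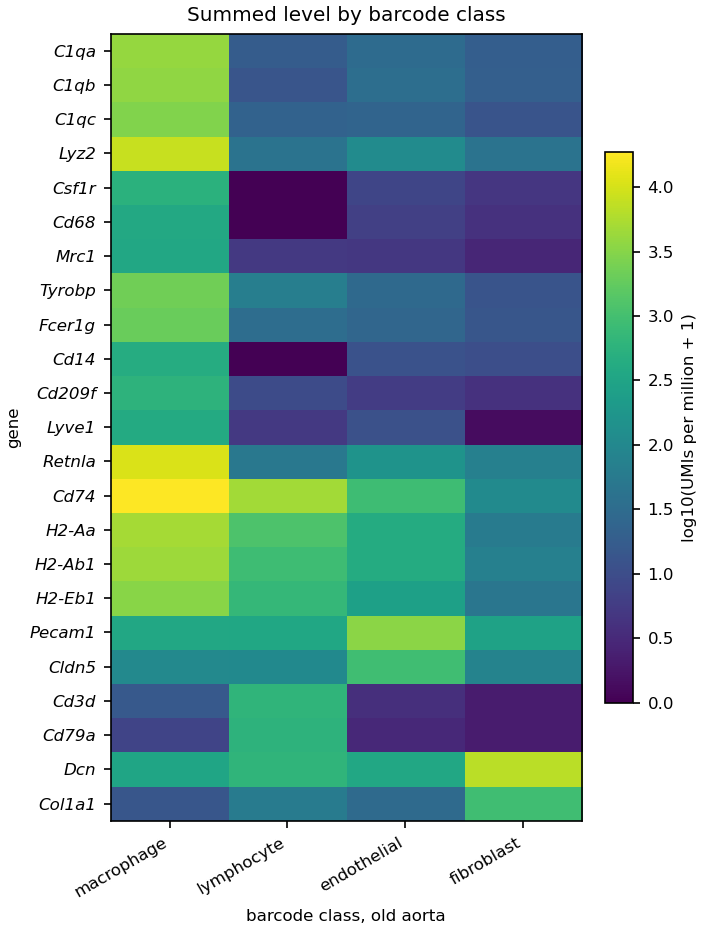
Summed level of the 10 myeloid genes of the rule, 3 resident genes, 4 class II genes and 6 genes of other cell types (rows) in 4 classes of old barcodes (columns), coloured by log10 of CPM plus 1. Macrophages stand in the left column, where C1qa reached 4020.2 CPM and Cd74 18817 CPM, while Cd74 was also seen at 4774 CPM in lymphocyte barcodes.

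The broad question was which genes set these macrophages apart from the rest of the suspension. UMIs were summed over the 130 macrophages and over the 3278 other old barcodes, and each sum was scaled to CPM. A gene was called where the 95% interval of the ratio lay wholly past 4-fold. Of 12480 genes with at least 20 UMIs in the library, 498 were called higher in macrophages (3.99%) and 215 lower (1.72%), and the median log2 ratio over all of them was -0.33. With ratios centred on that median, 571 were higher and 117 lower. The balance turned under other ways of calling. When the ratio itself, without its interval, had to pass 4-fold, 816 were higher and 1262 lower. By the mean over barcodes 719 were higher and 2599 lower, but no floor was set there, so genes at 0 in macrophages counted as lower. Lower calls also need more UMIs: 215 genes were lower at a minimum of 20 or 100 UMIs and with no minimum. No gene under 100 UMIs was thus called lower, and 0 lower among rare genes carries little weight. The 10 myeloid genes and the 5 endothelial genes made the rule, so their values describe the choice. Since each molecule gives a single 3′ tag, levels are set side by side between genes without a scale for transcript length.

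Complement genes were among those with the highest ratios, 3 of them by the rule. C1qa, C1qb and C1qc, the 3 chains of C1q, lie side by side on the minus strand of chromosome 4 (GRCm38, GENCODE vM21), C1qa at chr4:136895917-136898803. C1qa had 0 UMIs in the lowest macrophage, a median of 17 and 73 in the highest, and was seen in 111 of 130. It stood at 4020.2 CPM in macrophages, against 28.4 CPM in all other barcodes (log2 ratio 7.15, 95% interval 7.01 to 7.28). C1qc stood at 2904 against 20.5 CPM and C1qb at 3677 against 30.7 CPM. C5ar1, the receptor for the fragment C5a, stood at 207 against 1.29 CPM (7.32, 6.69 to 8.02), and C3ar1, the receptor for C3a, at 149.6 against 1.13 CPM. Of 18 complement genes with at least 20 UMIs, 10 were higher and 0 lower (median log2 ratio 4.50). The 8 not called included C1ra, a protease that C1q activates, at 11.5 against 75.4 CPM (-2.71, -4.03 to -1.67), and Cd59a, an inhibitor of the lytic pore, at 3.29 against 45.8 CPM on 2 UMIs. Neither passed the call.

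Receptors that carry immune-complex and lectin signals were mostly higher. Ms4a7, a membrane protein of macrophages, stood at 266 against 1.45 CPM (7.52, 6.92 to 8.16) in 57 macrophages. Of 19 genes for Fc receptors and their signalling partners, 18 were higher (median 6.01), and Sirpa, an inhibitory receptor, at 129.8 against 51.1 CPM, was not. Fcgr3, a low-affinity receptor for IgG, was seen in 107 macrophages and stood at 454 against 3.39 CPM (7.06, 6.66 to 7.48). Its signalling chain Fcer1g and the signalling adaptor Tyrobp, both genes of the rule, were seen in 129 and 128 macrophages. Clec4n, the lectin receptor Dectin-2, was rarer, with 51 UMIs in 22 macrophages. Of 19 genes for scavenging and the uptake of dying cells 12 were higher (median 5.71). Among them was Cd163, which takes up haemoglobin bound to haptoglobin, at 220 against 1.78 CPM, and Mrc1, the mannose receptor, at 368 against 3.39 CPM. The bridging receptor Axl (110.1 against 141 CPM) and the scavenger receptor Stab1 (194 against 252 CPM) did not stand higher.

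The 3 resident genes were all called higher. Retnla encodes the secreted protein RELMα and lies at chr16:48842551-48844461. It stood at 10683 CPM in macrophages, against 138 CPM elsewhere (6.27, 6.21 to 6.34). Its UMIs ran from 0 over a median of 5 to 642 per macrophage, and the 10 highest macrophages held 56.1% of them, so its level rests on few cells. Lyve1 (chr7:110850607-110863239) was seen in 66 macrophages, with at most 11 UMIs, and stood at 414 against 9.86 CPM (5.39, 5.11 to 5.68). Cd209f, a lectin of the DC-SIGN family, was seen in 54 with at most 20 UMIs, and stood at 574 against 4.20 CPM (7.09, 6.74 to 7.47). Of 22 further genes linked to resident macrophages 19 were higher (median 6.42). Pf4, a chemokine, stood at 2600.1 against 32.2 CPM, F13a1, the A subunit of clotting factor XIII, at 771 against 7.22 CPM, and Folr2, a folate receptor, at 565 against 5.39 CPM. Wfdc17 stood at 2158 against 20.3 CPM in 122 macrophages. The lectins Mgl2 and Clec10a stood at 450.3 against 3.56 CPM and 263 against 1.99 CPM, and share 9.82% and 13.8% of their 3′ words, so they are uncertain. Timd4, a receptor for phosphatidylserine on dying cells, had 46 UMIs in 31 macrophages. Fcgrt, which recycles IgG, Gas6, a bridging ligand, and Ninj1, an adhesion protein, were not called. Sepp1, which carries selenium, was seen in 116 macrophages and stood at 3095 against 582 CPM (2.41, 2.34 to 2.48).

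Cd209f has a near neighbour on chromosome 8 whose level went with it over macrophages. Cd209g stood at 248 against 2.05 CPM and was seen in 50 macrophages, Cd209d at 274 against 2.32 CPM in 56, and Cd209b at 105 against 0.808 CPM in 26. Across the 130 macrophages the Spearman correlation of Cd209f with Cd209g was 0.76, given as a description, since depth is shared. This was not particular to Cd209g, as Cd209f correlated at 0.82 with the lectin gene Fcna, 0.76 with Folr2 and 0.69 with Lyve1. Of the 50-base words in the last 500 bases of Cd209f transcripts 37.1% occur in another gene, mainly Cd209g, so counts of the 2 genes may be split and are uncertain. Their promoters are also alike, and both are printed because the levels of the genes went together over macrophages (RefSeq windows of 300 bases, 250 before and 50 after the start, GRCm38.p6). Capitals mark runs of at least 10 identical bases when the windows are laid side by side without gaps, at the shift with the most identical bases. Cd209f is on the minus strand at chr8:4105715-4106014 and Cd209g on the plus strand at chr8:4134486-4134785.
Cd209f: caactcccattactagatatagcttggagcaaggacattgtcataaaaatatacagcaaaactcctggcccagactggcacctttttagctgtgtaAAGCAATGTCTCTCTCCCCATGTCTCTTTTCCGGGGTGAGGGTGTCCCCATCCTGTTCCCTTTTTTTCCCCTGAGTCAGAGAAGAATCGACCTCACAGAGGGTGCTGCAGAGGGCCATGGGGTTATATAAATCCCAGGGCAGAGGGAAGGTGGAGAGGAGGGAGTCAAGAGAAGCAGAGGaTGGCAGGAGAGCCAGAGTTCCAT
Cd209g: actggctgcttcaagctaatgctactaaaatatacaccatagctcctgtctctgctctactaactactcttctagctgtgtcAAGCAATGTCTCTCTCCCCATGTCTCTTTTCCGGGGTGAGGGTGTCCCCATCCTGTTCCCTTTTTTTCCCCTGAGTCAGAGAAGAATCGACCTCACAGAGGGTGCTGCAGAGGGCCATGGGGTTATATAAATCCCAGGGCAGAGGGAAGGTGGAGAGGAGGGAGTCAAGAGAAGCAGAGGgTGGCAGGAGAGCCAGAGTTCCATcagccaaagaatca
Over 286 aligned bases 238 were identical (83.2%), the longest run was 180 bases, and all 203 bases in capitals lie from base 97 of the Cd209f window to its end.

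MHC class II genes were abundant in the macrophages. Cd74, the invariant chain that guides class II molecules, was the most abundant gene among those called higher. It had 0 UMIs in the lowest macrophage, a median of 32.5 and 508 in the highest, and was seen in 122 of 130. It stood at 18817 CPM in macrophages, against 869 CPM in all other barcodes (4.44, 4.40 to 4.47). The chains H2-Aa, H2-Ab1 and H2-Eb1, which lie close together on chromosome 17, stood at 5023 against 393 CPM, 4508 against 390 CPM and 3289 against 249 CPM. Of 10 class II genes with at least 20 UMIs 8 were higher and 0 lower (median 3.23). These included H2-DMa (708 against 79.2 CPM) and H2-DMb1 (482 against 86.7 CPM), which exchange peptides on class II molecules, and Ciita, the class II transactivator, on 15 UMIs in 14 macrophages (24.7 against 2.86 CPM). H2-Oa and H2-Ob, which restrain that exchange and stood at 91.5 and 125 CPM in lymphocyte barcodes, had 3 and 5 UMIs in macrophages. H2-DMb1 shares 27.4% of its 3′ words with H2-DMb2, so these are uncertain. Class II RNA was also found in the other classes. The list summed to 32934 CPM in macrophages, against 8175 CPM in lymphocyte, 2223 CPM in endothelial and 318 CPM in fibroblast barcodes. The costimulatory genes Cd83 (460.2 against 6.30 CPM) and Cd86 (164 against 1.78 CPM) were higher too, as were 4 of 7 on that list, while Cd274, the ligand PD-L1, had 5 UMIs.

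Class II promoters are known for a pair of conserved boxes, X and Y, which bind the factors that recruit Ciita. The windows of H2-Aa, H2-Eb1 and H2-DMb1 are printed because all 3 genes were called higher. Capitals mark TGATTGG, the core of the Y box, and the words TGACGTCA and TGATGATG that lie before it, each searched on both strands. The motifs were chosen with the windows in view, and none overlaps another here. H2-Aa is on the minus strand at chr17:34287774-34288073, H2-Eb1 on the plus strand at chr17:34305617-34305916 and H2-DMb1 on the plus strand at chr17:34152941-34153240 (RefSeq, GRCm38.p6).
H2-Aa: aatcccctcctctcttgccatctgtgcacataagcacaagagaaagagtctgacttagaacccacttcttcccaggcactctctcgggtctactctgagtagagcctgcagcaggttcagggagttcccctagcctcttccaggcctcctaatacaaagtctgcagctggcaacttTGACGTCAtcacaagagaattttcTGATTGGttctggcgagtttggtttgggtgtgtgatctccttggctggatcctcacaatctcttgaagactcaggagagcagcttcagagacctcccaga
H2-Eb1: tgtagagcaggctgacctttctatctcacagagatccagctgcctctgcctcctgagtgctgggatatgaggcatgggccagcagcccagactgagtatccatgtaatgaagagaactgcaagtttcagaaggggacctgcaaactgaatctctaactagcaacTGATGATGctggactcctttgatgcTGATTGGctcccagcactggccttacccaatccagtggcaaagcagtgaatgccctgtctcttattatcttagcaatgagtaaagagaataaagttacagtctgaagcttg
H2-DMb1: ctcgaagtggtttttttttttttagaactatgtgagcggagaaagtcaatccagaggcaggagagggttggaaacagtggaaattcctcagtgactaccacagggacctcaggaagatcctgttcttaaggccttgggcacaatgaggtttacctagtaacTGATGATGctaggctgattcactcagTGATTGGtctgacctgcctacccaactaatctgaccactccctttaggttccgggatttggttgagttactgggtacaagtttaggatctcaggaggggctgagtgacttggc
TGATTGG begins at base 201 in H2-Aa, 190 in H2-Eb1 and 188 in H2-DMb1. Of the 11 class II genes 8 have a window, and 7 of these 8 hold it. TGACGTCA is held by 1 of the 8 and TGATGATG by 2. TGATTGG did not follow the calls: H2-Oa and H2-Ob, not called, and H2-Eb2, at 0 UMIs in macrophages, hold it. H2-DMa, called higher, does not. Of all 32851 windows 7.82% hold TGATTGG, 1.79% TGACGTCA and 1.44% TGATGATG. H2-Ab1, Cd74 and Ciita were not used here.

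Chemokine genes were mostly higher. Of 16 chemokine genes 11 were higher (median 5.30). Cxcl2, which draws neutrophils, was seen in 92 macrophages with up to 124 UMIs, and stood at 3190.2 against 34.1 CPM (6.55, 6.42 to 6.68). Ccl6 stood at 2751 against 32.4 CPM in 116 macrophages, Ccl9 at 1157 against 13.6 CPM in 108, and Ccl24, which draws eosinophils, at 623 against 5.06 CPM in 74. The chemokines Ccl4 and Ccl3 were seen in fewer macrophages, 37 and 30, at 804 against 10.0 CPM and 345 against 3.61 CPM. Ccl5 (42.7 against 46.9 CPM) was mainly a lymphocyte gene, at 1679.9 CPM there, and Cxcl9 had 0 UMIs in macrophages. Among cytokines, 7 of 13 were higher (median 3.30). Il1b, the cytokine interleukin-1 beta, was seen in 42 macrophages with up to 40 UMIs, and stood at 713 against 5.12 CPM (7.12, 6.80 to 7.46). Tnf stood at 77.2 against 0.808 CPM on 47 UMIs. Nos2 and Il27 had 0 UMIs in macrophages. Of 17 receptors for chemokines and related ligands 10 were higher (median 4.93), with Ccr2 at 220.2 against 4.69 CPM in 33 macrophages and Cx3cr1, the fractalkine receptor, at 74.0 against 0.700 CPM in 23.

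Csf1r, the receptor for the growth factor M-CSF and a gene of the rule, was seen in 110 macrophages, and Csf2ra, a chain of the GM-CSF receptor, stood at 215 against 7.38 CPM in 63. Of 19 such receptors 6 were higher (median 1.26). Spi1, the myeloid factor PU.1, stood at 329 against 4.53 CPM (6.18, 5.81 to 6.57), and Irf5 at 143 against 2.26 CPM. Of 31 transcription factors 15 were higher, and only Id3, at 302 against 1948 CPM (-2.69, -2.90 to -2.48), was lower. Klf2, a flow-responsive factor of endothelium, was the most abundant of the list at 1228 CPM, against 2074 CPM in all other barcodes. Of 22 immediate early genes 6 were higher, among them Fos (1699 against 324 CPM) and Atf3 (587 against 40.3 CPM). Of 27 interferon response genes 2 were higher, Ifi27l2a (1077 against 130.2 CPM) and Cxcl10 (122 against 2.16 CPM), and the list median was -0.67.

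Iron, lipid and matrix genes were mixed. Of 11 iron genes 6 were higher (median 2.07). Ftl1, the ferritin light chain, was seen in all 130 macrophages and stood at 13839 against 3303 CPM (2.07, 2.03 to 2.10). Its 3′ words are shared at 74.0% with a pseudogene, so it is uncertain. Slc40a1, the iron exporter ferroportin, had 29 UMIs in 18 macrophages (47.7 against 0.377 CPM), and Hmox1, which breaks down haem, stood at 151 against 7.97 CPM in 51. Of 28 lysosomal genes 4 were higher: Lyz2, Lyz1, Ctsc and Ctss, the last a protease that trims the invariant chain, at 940.1 against 13.4 CPM. Of 19 lipid-linked genes 4 were higher, Lgals3, Lpl, Cd36 and Trem2. Apoe, the lipid carrier, was the most abundant of that list at 6599 CPM but stood at 3075 CPM elsewhere. Fabp4, which binds fatty acids, had 4 UMIs. Of 28 growth factor and matrix genes 7 were higher, with Tgfbi, Igf1, Mmp9, Mmp12, Mmp13, Mmp19 and Adam8, and 3 were lower, Mmp2, Timp3 and Sparc.

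**Figure D2:**
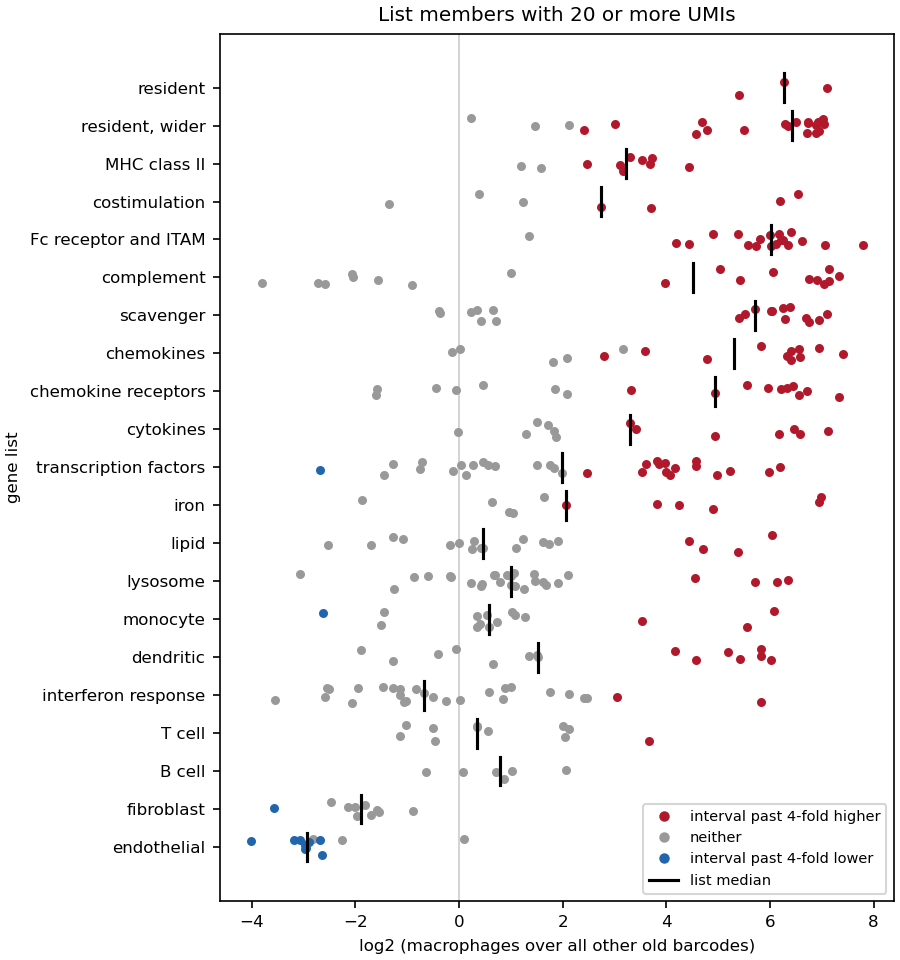
Log2 ratio of CPM in macrophages over all other old barcodes (x axis) for genes with at least 20 UMIs, by list (y axis). Each point is 1 gene, coloured by whether its interval lies past 4-fold, and black bars mark list medians, which run from 6.42 in the wider resident list to -2.93 in the endothelial list.

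Markers of other cells were low or absent, with exceptions. Of 12 endothelial markers 9 were lower and 0 higher, and 5 of the 9 made the rule. Pecam1, present on endothelium and leukocytes, was seen in 92 macrophages at 359.9 against 2803 CPM. Of 11 T cell markers 1 was higher, Cd2, an adhesion receptor, at 39 UMIs in 23 macrophages, while Cd3e had 1 UMI. Of 3 natural killer and 6 B cell markers with at least 20 UMIs 0 were called, and 3 macrophages carried at least 3 lymphocyte genes. Of 12 neutrophil genes 7 were at 0, and the only one higher was the protease Mmp9. Mast cell genes had at most 2 UMIs each. Of 15 dendritic cell genes 7 were higher, Cd209a, Batf3, Plbd1, Irf8, Irf4, Itgax and Siglech. Batf3 stood at 128 against 2.26 CPM, Irf8 at 125 against 6.95 CPM and Cd209a at 204 against 3.12 CPM. Others of the list were rare, as Xcr1 had 0 UMIs, Clec9a 1, Flt3 2 and Zbtb46 4, so the list was mixed. Of 15 monocyte genes Ccr2, Ear2 and Itgal were higher and Ace lower, while Ly6c2 had 6 UMIs and Chil3 0. Of 5 platelet genes Pf4 was higher, and Gp9, Gp1bb and Treml1 were at 0. Smooth muscle genes had 251 UMIs in all, and 1 macrophage of the 130 carried at least 3 of the 8. Without it 497 genes were higher and 230 lower. Of 10 fibroblast markers only Col1a1, a collagen chain, was lower and 0 were higher. Of 5 red cell genes 4 were lower, but only because of the 448 barcodes of no named class, where the list summed to 143679 CPM. It summed to 1737 CPM in macrophages, 1544 in endothelial, 1445 in fibroblast and 615 in lymphocyte barcodes. A single macrophage held 635 of its 1057 UMIs in macrophages. Of 23 genes found in leukocytes at large 21 were higher (median 4.54), among them Ptprc, the gene of CD45.

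The next question was how far resident genes were spread over the macrophages. Depth limits this, so each barcode was thinned to 2900 UMIs, which 98 of the 130 macrophages reached. At that depth 73 of the 98 held a UMI of Cd209f, Lyve1 or Retnla, 74.5% (64.7 to 82.8%), and without thinning 83.1% of the 130 did. The background must be read beside this: 19.2% of 1908 endothelial barcodes (17.5 to 21.1%) and 19.5% of 440 fibroblast barcodes (15.9 to 23.6%) also held such a UMI, mostly of Retnla. Median depths before thinning were 4045.5 UMIs in macrophages, 5778 in endothelial and 4759 in fibroblast barcodes. The background was much lower for the other 2 genes. Lyve1 was seen in 36.7% of thinned macrophages (27.2 to 47.1%), against 1.21% of endothelial and 0 of 440 fibroblast barcodes (exact upper bound 0.835%), and Cd209f in 34.7% (25.4 to 45.0%), against 0.996 and 0.909%. Of the thinned macrophages 25 showed none of the 3 genes, 36 showed 1, 10 showed 2 and 27 showed all 3.

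Class II RNA varied over the whole range. The sum of Cd74, H2-Aa, H2-Ab1 and H2-Eb1 ran from 0 to 1317 UMIs per 10000 of a macrophage, with a median of 149 (exact 95% interval of the median 84.9 to 223). The lowest 10% of macrophages lay below 5.43 and the highest 10% above 883 per 10000. The 4 genes went together over macrophages, with Spearman correlations of Cd74 with H2-Aa, H2-Ab1 and H2-Eb1 of 0.95, 0.92 and 0.93. The class II sum correlated at 0.32 with depth and at -0.31 with the resident sum, all as descriptions over 130 macrophages of 1 library.

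Class II was lower where resident genes were seen. The 73 macrophages with a resident UMI held 21547 CPM of the 4 genes, against 71635 CPM in the 25 without (log2 ratio -1.73, -1.78 to -1.69). Their medians were 91.2 and 847 UMIs per 10000, and their median depths 4755 and 5230.0 UMIs. The more resident genes macrophages showed, the lower their median class II sum: it was 847 per 10000 with none, 241 with 1, 48.4 with 2 and 27.7 with all 3. Median depths before thinning were 5230, 6586.5, 4823.5 and 3803 UMIs in the same order, and the part of depth was not tested. The groups overlapped, with a range of 1.30 to 1317 with none and of 2.10 to 559 with all 3. The macrophage at 1.30 held Lyve1 UMIs before thinning. Without thinning, 22 macrophages had no resident UMI, and their class II sums ran from 0 over a median of 837 to 1317. Split on Lyve1 alone the ratio was -2.27, and on Retnla alone -1.59. The side with a resident UMI was not of a kind, since Retnla alone put a macrophage there. Lyz1, a lysozyme, had 402 UMIs with and 1 UMI without a resident UMI, but 10 macrophages held 81.7% of its UMIs, and over the 130 it correlated at -0.22 with Lyve1 and -0.21 with Cd209f. F13a1 had 349 and 2, Ccl24 had 301 and 2, and Fcna, the lectin ficolin A, had 194 and 0 (log2 ratio at least 4.41, with the empty side set at 3 counts). In the other direction Ccl4 stood at 188 against 2917 CPM (-3.95, -4.33 to -3.59), Il1b at 265 against 2158 CPM (-3.02, -3.36 to -2.70), Mmp12, an elastase of macrophages, at 39.7 against 579 CPM, and H2-M2, a non-classical MHC gene, at 37.2 against 586 CPM. Of the 130 macrophages, Mmp12 was seen in 21 and H2-M2 in 12.

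**Figure D3:**
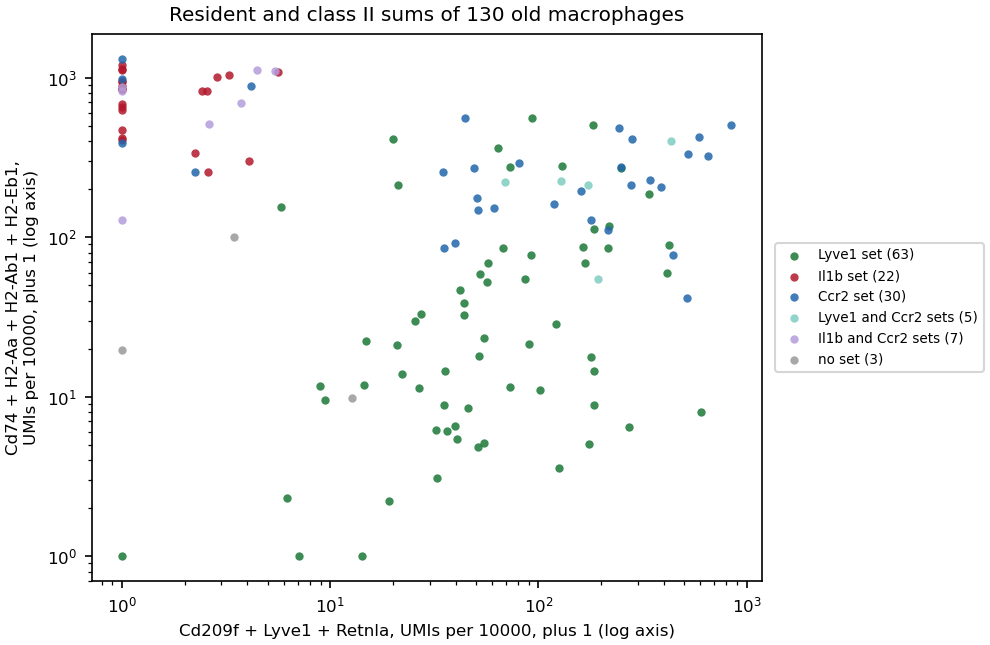
Class II sum (y axis) against the sum of Cd209f, Lyve1 and Retnla (x axis) of each of the 130 old macrophages, in UMIs per 10000 plus 1, both on log axes, coloured by the sets described in the text. Macrophages with no resident UMI lie at the left edge, and macrophages of the Lyve1 set spread over the range up to 559.

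The macrophages were also split at the median of the class II sum. Mmp12 and H2-M2 had 97 UMIs each in the upper 65 macrophages and 0 in the lower 65 (log2 ratio at least 4.60). Most of the upper 65 showed neither gene's UMIs in number, as Mmp12 was seen in 21 macrophages and H2-M2 in 12. Il1b stood at 1184 against 84.5 CPM and Ccl4 at 1322 against 111 CPM. The 10 macrophages highest in each gene held 56.2% of Il1b and 80.2% of Ccl4 UMIs. Lower in the upper 65 were Ccl7, which draws monocytes, at 175 CPM in the upper and 1087 CPM in the lower macrophages, Fcna at 138 against 810.4 CPM, Lyve1 at 135 against 787 CPM and Pf4 at 1014 against 4721 CPM. Also lower in the upper 65 were the muscle genes Tagln, Myl9 and Acta2. Those rest on few cells, as the same single macrophage held 44 of 50 Tagln, 46 of 54 Myl9 and 98 of 130 Acta2 UMIs.

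Resident genes did not all mark the same macrophages. Over the 130, Lyve1 went with Pf4 (Spearman 0.80), F13a1 (0.77), Folr2 (0.75) and Cd209f (0.69), but Retnla hardly went with Lyve1 (0.08) or Cd209f (0.21) and, of 22 chosen genes it was set against, had its highest correlation with Lyz1 (0.50). These correlations led to 3 sets of 5 genes, chosen after their values were seen: Lyve1, Cd209f, Folr2, Fcna and Cd163; Il1b, Mmp12, Cx3cr1, H2-M2 and Cd72; and Ccr2, Ear2, Lyz1, Lpl and Clec4b1. With at least 2 of 5 genes detected, 63 macrophages fell in the Lyve1 set alone, 22 in the Il1b set alone and 30 in the Ccr2 set alone. Another 5 met the Lyve1 and Ccr2 sets, 7 the Il1b and Ccr2 sets, and 3 none, and 0 met the Lyve1 and Il1b sets together. Depth differed, with medians of 3053 UMIs in the Lyve1 set, 4534.5 in the Il1b set and 6894.5 in the Ccr2 set. At 2900 UMIs each the sets held 37, 20 and 26 macrophages.

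**Figure D4:**
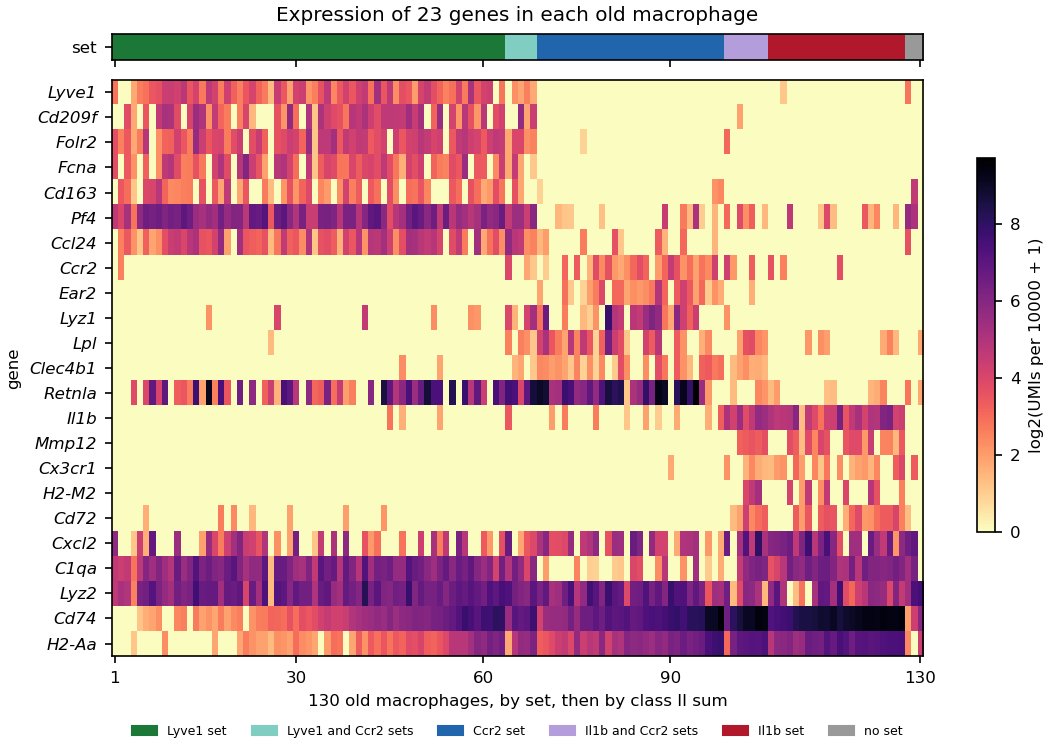
Level of 23 genes (rows) in each of the 130 old macrophages (columns, ordered by set and then by class II sum), as log2 of UMIs per 10000 plus 1, with the sets in the colour bar on top. The 5 genes of each set define its block by choice. Pf4, Ccl24, Retnla, Cxcl2, C1qa, Lyz2, Cd74 and H2-Aa are not set genes. All of these but Lyz2 were among the genes whose correlations led to the sets, and C1qa and Lyz2 are genes of the rule.

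The Lyve1 set had little class II and much C1q. Its class II sum ran from 0 over a median of 20.5 to 559 UMIs per 10000, and its C1q sum had a median of 186. All 5 genes of the set correlated negatively with Cd74 over the macrophages, so its low class II follows in part from its choice. Besides its own 5 genes, Pf4 was seen in all 63 at 6199 CPM, F13a1 in 62 at 1697 CPM, and Ccl24 in 59 at 1285 CPM. Each of these was among the genes whose correlations led to the sets, so this follows in part from that choice. Timd4 was seen in 30 of the 63 and in 0 of the Il1b and Ccr2 sets, and likewise Ccl8, a chemokine, in 32 and 0, and Mmp9 in 22 and 0. C4b, a complement component, was seen in 43 of the set, against 0 of the Il1b set and 1 of the Ccr2 set. Cd36, a fatty acid and lipoprotein receptor, stood at 549 CPM, against 55.9 CPM in the Il1b set and 116 CPM in the Ccr2 set. Trf, transferrin, stood at 1263, 335 and 131 CPM. The single macrophage rich in muscle genes was in this set, which also held 793 UMIs of haemoglobin and other red cell genes, a single macrophage holding 332 of those of Hbb-bs.

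The Il1b set had the most class II. Its class II sum ran from 255 over a median of 833 to 1196 UMIs per 10000, and H2-Aa was seen in all 22. Il1b, Mmp12 and H2-M2 were among the genes highest in the upper class II macrophages, so this level follows in part from the choice of set. The C1q sum had a median of 171, against 186 in the Lyve1 set, and Retnla had a median of 0. Aif1, known as Iba1, stood at 1080.3 CPM, against 252 CPM in the Lyve1 set and 14.5 CPM in the Ccr2 set. Ccl4 stood at 2794 CPM, against 59.5 CPM in the Lyve1 set and 174 CPM in the Ccr2 set, and Ccl3 at 1239, against 73.2 and 53.2 CPM. Cxcl2 was seen in 20 of 22 at 6416 CPM, Cxcl16, a scavenger receptor and chemokine, in 21 at 847 CPM, and Cd83 in all 22 at 1071 CPM. Mmp13, a collagenase, was seen in 9 of 22, and Dnase1l3, a secreted nuclease, in 10, both in 0 of the Lyve1 and Ccr2 sets. F13a1 was seen in 1 of 22, and Folr2, Cd209f and Fcna in 0. These genes, like Retnla, correlated negatively with Il1b over the macrophages, so their low counts follow in part from the choice of set.

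Members of the Ccr2 set lacked several genes that mark macrophages, so the name is not borne out for all of them. C1qa was seen in 14 of its 30 members, Csf1r in 20, Cd68 in 18 and Adgre1, the gene of the F4/80 antigen, in 12, while Lyz2, Tyrobp and Fcer1g were seen in all 30. Its C1q sum had a median of 2.06 UMIs per 10000. Its class II sum ran from 40.8 over a median of 255, between the medians of the other 2 sets, to 1317, above both of their highest values. Retnla was highest here, at 21707 CPM with a median of 139 per 10000. Over all macrophages, Retnla correlated positively and C1qa negatively with Ccr2, Ear2, Lyz1 and Lpl. The high Retnla and low C1q of this set thus follow in part from its choice. Lyve1, Cd209f and Fcna were seen in 0 of the 30, but macrophages with 2 or more genes of the Lyve1 set were kept out of this set. Fn1, fibronectin, was seen in 26 at 1993 CPM, Tnip3, an inhibitor of NF-kB signalling, in 28 at 687 CPM, and Lgals3, galectin-3, in 29 at 1345 CPM. Aldh1a2, which makes retinoic acid, was seen in 14 of 30, and Adam8, a surface protease, in 17, each in 0 of the Lyve1 and Il1b sets. Batf3, a factor known from dendritic cells, was seen in 22 of the 30, Cd24a in 18 and Cd2 in 20. Some other dendritic cell genes were rare over all macrophages, with 0 UMIs of Xcr1, 1 of Clec9a, 2 of Flt3 and 4 of Zbtb46. Others were not, as Cd209a had 124 UMIs in 32 macrophages and Irf8 had 76 in 49. The dendritic cell list summed to 1122 CPM in this set, against 595 CPM in the Lyve1 set and 875 CPM in the Il1b set. Cd24a did not stand higher in macrophages than elsewhere (log2 ratio -1.89). Ear2 shares 38.1% of its 3′ words with Ear1, and Lyz1 17.7% with Lyz2, so their counts are uncertain. The 3 macrophages with at least 3 lymphocyte genes were in this set. Apoe stood at 701 CPM here, against 10682 CPM in the Lyve1 set and 10654 CPM in the Il1b set.

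**Figure D5:**
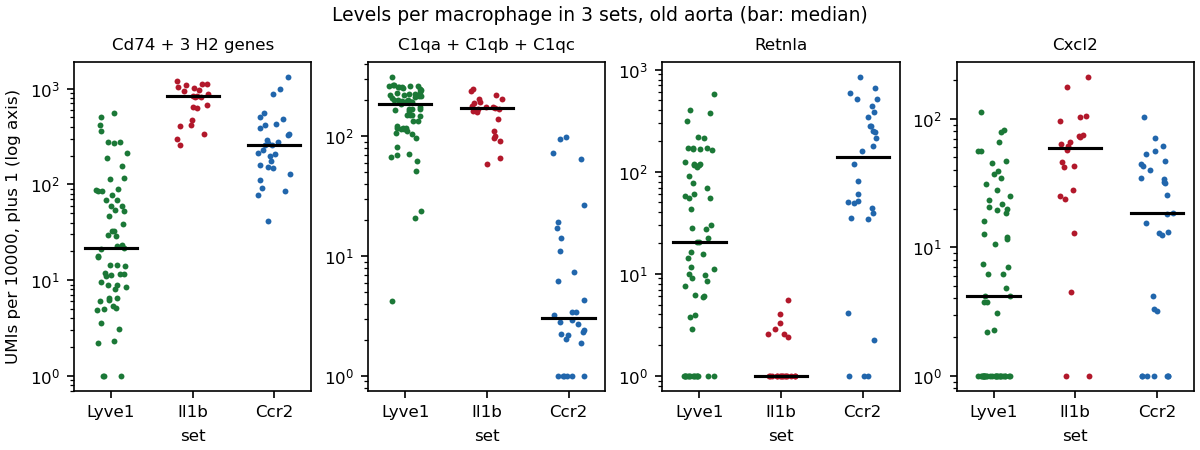
Class II sum, C1q sum, Retnla and Cxcl2 in each macrophage of the Lyve1, Il1b and Ccr2 sets, in UMIs per 10000 plus 1 on a log axis, with black bars at the medians. Class II medians were 20.5, 833 and 255, C1q medians 186, 171 and 2.06, and Retnla medians 19.4, 0 and 139 per 10000 in the 3 sets as ordered on the axis.

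Signs of division were seen in few macrophages. Of 16 proliferation genes Mki67, Top2a, Birc5 and Ccnb2 were higher (median 1.78). Of 7 genes of the G2 and M phases (Mki67, Top2a, Birc5, Cdk1, Ccnb1, Ccnb2 and Ube2c), at least 3 were detected in 8 macrophages: 4 of the Ccr2 set, 3 of the Il1b set, 1 of no set and 0 of the Lyve1 set, whose depth was lowest. Mki67 had 18 UMIs in 9 macrophages.

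The 6 young macrophages are too few for more than a list of values. They held 46379 UMIs, from 3718 to 13689 each. By the same rules 3 fell in the Ccr2 set, 2 in the Lyve1 set and 1 in none. Il1b, Mmp12, H2-M2, Cd72, Cd209f and Cd209g had 0 UMIs in them, with 46379 UMIs as the depth behind each 0. Retnla had 1032 UMIs, of which 1003 lay in 1 barcode. Their class II sums were 2.24, 6.57, 40.3, 146, 221 and 275 UMIs per 10000, all within the range of the old macrophages. With 1 mouse per age, age and animal cannot be told apart.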

How the data were processed

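Each deposited matrix holds raw UMI counts as whole numbers, with 27998 gene names as rows and barcodes as columns. The submitters' processing notes name Cell Ranger and the build GRCm38; its version and annotation, and any filter on cells, were not given in the sources used here, and the lowest old barcode held 1541 UMIs.

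No further cell filter and no doublet caller was used. UMI counts were summed over macrophages and over all other old barcodes and scaled to 1000000 (CPM). Ratios carry exact conditional binomial 95% intervals and shares exact Clopper-Pearson 95% intervals, for counting error only. A side at 0 was set at 3 counts for the ratio, but not in the mean over barcodes. Genes with at least 20 UMIs in the library were counted. For shares of macrophages with a UMI, barcodes were thinned without replacement to 2900 UMIs, the 25th percentile of macrophages rounded down to a multiple of 100, and 32 macrophages below it were left out.

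Named genes are the 25 highest ratios, ranked by the interval bound nearest to no difference, among genes with at least 100 UMIs in macrophages, the 10 highest CPM past 4-fold, the 8 highest and 8 lowest in each split, ranked likewise, among genes with at least 50 UMIs, of each of 34 lists the 3 highest by CPM and the 2 highest and 2 lowest ratios, and the genes of the rule, the resident list and the class II list. Other genes named, among them C3ar1, Hmox1, Adgre1 and those in the account of the 3 sets, were chosen after their values were seen. The members and the lists were chosen with earlier results of these data known. The ratio, interval and thinning code was tested on simulated counts.

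Gene positions come from the GENCODE vM21 annotation of GRCm38, found by gene name for 554 of 556 genes looked up; promoters are RefSeq windows on GRCm38.p6. Words of 50 bases in the last 500 bases of transcripts were searched in transcripts of other genes. The work used scipy 1.17.1 for intervals, pandas 2.3.3 for tables, matplotlib 3.10.9 for figures, and Python 3.11.15 with numpy 2.4.6.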

Additional observations from a re-analysis of the deposited data

How the results depend on the processing

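No single result changed sign, but the balance of higher over lower genes turned by the ratio itself (816 and 1262) and by the mean over barcodes (719 and 2599). The mean set no floor, so genes at 0 in macrophages counted as lower. Intervals of the splits cover counting error alone, so small shifts pass them. Counts of genes called higher were 252 with at least 100 UMIs, 816 by the ratio itself and 160 against lymphocyte barcodes, against 498; those called lower, against 215, were 84 with none of the endothelial genes allowed, 40 with no endothelial clause, 1262 by the ratio itself, 2599 by the mean over barcodes, 117 when ratios were centred on the median of all genes (-0.33) and 70 against lymphocyte barcodes. The share of macrophages became 1.20% with none of the endothelial genes allowed. The share with a resident UMI was 83.1% without thinning and 36.7% for Lyve1 alone. The class II ratio was -2.52 with none of the endothelial genes allowed, -1.61 with no endothelial clause, -1.82 without barcodes over 10% mitochondrial UMIs or under 200 genes, -1.68 without thinning, -2.03 at 1500 UMIs, -1.96 for at least 2 resident UMIs, -2.27 for Lyve1 alone, and, in splits added after seeing the data, -1.59 for Retnla and -1.79 for Cd209f. The class II median without Cd74 was 53.1 UMIs per 10000. The cause of these shifts was not tested. The other 57 alternative values, those without the macrophage rich in muscle genes among them, stayed within the interval or within 1.5 times the count. No paired analysis was possible because each age has 1 library and no replicate numbers.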
